A study of Rattus norvegicus with 6 samples.

Results

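Acid-base transport and ammonia handling in the rat kidney were described here through 9 genes chosen by name: Slc4a4, Car4, Glud1, Slc4a1, Slc26a4, Rhbg, Rhcg, Car2 and Car12. All array probe sets with exactly 1 of these symbols were taken, which gave 13 probe sets for 8 of the 9 genes, out of 14217 named genes in all. No probe set carries the symbol Rhbg alone, so this ammonia transporter was not analysed here. Each gene is represented by its probe set of highest mean signal over the arrays, called its main probe set, and any others serve as a check. Kidney RNA came from adult male rats, 3 of the congenic strain S.LEW.D1MCO4x1x3Bx1 and 3 of the inbred Dahl salt-sensitive strain SS/Jr (S), with 1 array per rat, so p-values measure the spread between these rats. The congenic strain has the S background, shared by both groups, and carries a segment of chromosome 1 from the Lewis rat. By its title the series was built around Adamts16, a secreted metalloprotease gene, and each strain stands for a single inbred line. Whole kidney was measured, so fewer cells of a type and less RNA per cell cannot be told apart, and neither diet nor exact age was stated for these rats.

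The kidney holds blood pH steady in several places along the nephron. In the proximal tubule, protons secreted into the lumen reclaim filtered bicarbonate with the help of carbonic anhydrases, and glutamine taken up from blood is broken down to ammonia and new bicarbonate. In the collecting duct, type A intercalated cells secrete protons and return bicarbonate to blood, type B intercalated cells secrete bicarbonate, and Rh family proteins let ammonia pass into the urine. Proximal and intercalated cell genes are therefore described apart.

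Signals are the submitters' scaled linear values. The median signal was 162 to 174 on the congenic arrays and 170 to 178 on the S arrays. For beta-actin the 3' probe set over the 5' one, which tracks RNA integrity, gave ratios of 1.94 to 2.06 in congenic and 1.99 to 2.30 in S kidneys. For GAPDH it was 1.12 to 1.20 in congenic and 1.11 to 1.18 in S kidneys. Differences are log2 of congenic over S from limma, with a standard error (SE) and Benjamini-Hochberg adjustment over all 15521 probe sets above the filter on low signals, which 12 of the 13 member probe sets and all 8 main ones passed. At adjusted p 0.05 the share of all probe sets called was 0%, and none of the 8 genes was called. At unadjusted p below 0.05, which 10.3% of all probe sets tested reached, there were 2 of the 8 main probe sets, Car4 higher and Slc4a4 lower in congenic kidneys.

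By main probe sets, 4 of the 8 genes had a positive and 4 a negative difference, with a median of 0.05 against -0.01 over all probe sets tested. The negative ones include Car2, at -0.00487, and Slc4a4, whose other probe set was positive. In Car4, Glud1 and Rhcg the 3 congenic rats all lay above the 3 S rats, as did 7.98% of all probe sets tested. In Slc4a4 the congenic rats all lay below, as did 7.99%. These 4 genes have mean signals above 1000, and no such share was taken over probe sets of like signal. In Slc4a1, Slc26a4, Car2 and Car12 the strains overlapped. With 3 rats against 3, the exact permutation test cannot go below p = 0.1, the value it gave for each of the 4 genes without overlap (2-sided). The SE of the 12 tested member probe sets ran from 0.07 to 0.21, with a median of 0.09 against 0.14 over all probe sets tested.

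**Figure D1:**
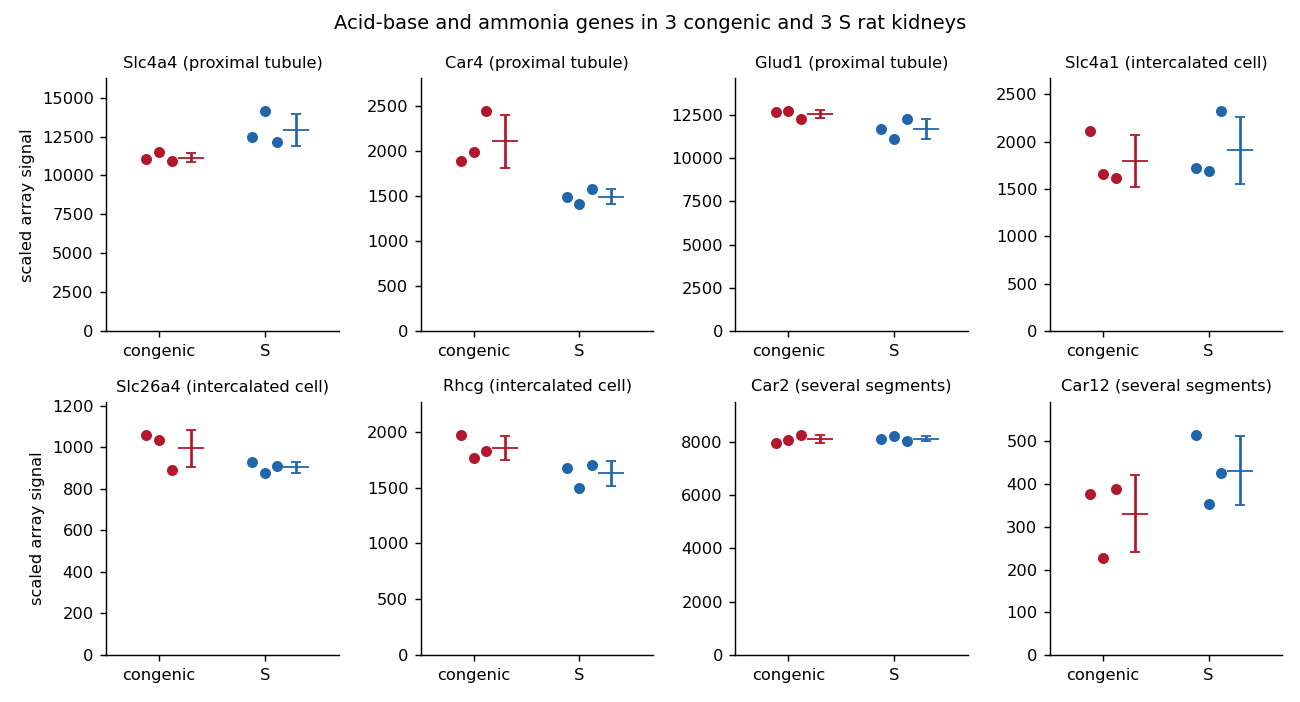
Scaled array signal (linear axis from 0) of the main probe set of each gene in every rat, congenic on the left and S on the right of each panel, with mean ± SD beside the points (n = 3 each). Car4, Glud1 and Rhcg separate with congenic rats above, Slc4a4 with congenic rats below, and the other 4 genes overlap. Each panel has its own scale, since levels of different probe sets cannot be compared.

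Among the proximal tubule genes, Car4 differed most. It encodes carbonic anhydrase 4, the enzyme anchored on the luminal membrane that turns carbonic acid into carbon dioxide and water during bicarbonate reclamation. Its signal was 1886, 1991 and 2438 in the congenic rats, against 1492, 1410 and 1578 in the S rats. The lowest congenic rat was thus above the highest S rat, and the spread was wider among congenic rats, with means of 2105 ± 293 and 1493 ± 84.3 (SD, n = 3 each). The log2 difference was 0.49 (SE 0.11, 95% interval 0.26 to 0.71), a fold of 1.4, with an unadjusted p of 3.49e-04 and an adjusted p = 0.151 in limma. The second Car4 probe set read at most 37.6 over the 6 arrays, at or below the floor of 12.3 on 4 of them, so it could not be used as a check. Averaging both Car4 probe sets gave a log2 difference of 0.23, with an unadjusted p of 0.423.

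Glud1 encodes glutamate dehydrogenase, the mitochondrial enzyme that releases ammonia from glutamate. Its main probe set read 12674, 12685 and 12252 in the congenic rats, against 11644, 11107 and 12226 in the S rats. The gap between the lowest congenic and the highest S rat was small, and the log2 difference was 0.11 (SE 0.07, 95% interval -0.05 to 0.26, limma adjusted p = 0.642). In the second Glud1 probe set the strains overlapped, with 7911 to 8750 in congenic and 7753 to 8119 in S kidneys and a log2 difference of 0.07.

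Slc4a4 encodes the sodium bicarbonate cotransporter NBCe1, which carries reclaimed bicarbonate out of proximal tubule cells towards the blood, and its probe sets pointed opposite ways. The main probe set read 11030, 11490 and 10903 in the congenic rats, against 12468, 14112 and 12171 in the S rats. Every congenic rat was below every S rat, with a log2 difference of -0.21 (SE 0.08, 95% interval -0.38 to -0.04, unadjusted p of 0.0184, limma adjusted p = 0.385). Leaving out S replicate 2 gave an unadjusted p of 0.0967, leaving out congenic replicate 3 gave 0.0589, and 0.144 was found with each array centred on its median. The second probe set read 5560, 6559 and 5490 in the congenic rats, against 5613, 4903 and 4658 in the S rats. Here 1 of the 3 congenic rats was above all S rats and the others lay below the highest S rat, with a log2 difference of 0.21 (SE 0.09, 95% interval 0.01 to 0.41, unadjusted p of 0.0376, limma adjusted p = 0.457). Without congenic replicate 2 this difference was 0.13.

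Set against each other within each array, the log2 ratio of the second to the main Slc4a4 probe set averaged -0.93 ± 0.10 in congenic and -1.35 ± 0.19 in S kidneys (SD, n = 3 each). The ratios were -0.99, -0.81 and -0.99 in the congenic rats and -1.15, -1.53 and -1.39 in the S rats, without overlap. The change in ratio was 0.43 with p = 0.1 by the 2-sided exact permutation test, the smallest value this design allows. The ratio was formed after the opposite signs of both probe sets were seen, so it restates them and is not a separate test. How many other genes have probe sets that part in this way was not analysed here. The mean of both probe sets gave a log2 difference of 0.00186, so no single direction can be given for Slc4a4. Which part of the transcript each probe set reads was not analysed here.

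**Figure D2:**
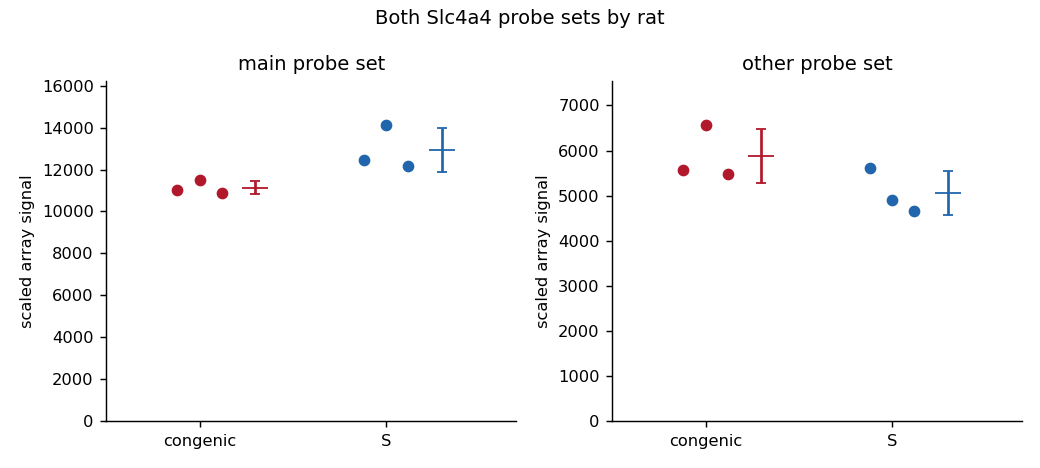
Scaled array signal (linear axis from 0) of both Slc4a4 probe sets in every rat, congenic on the left and S on the right, with mean ± SD (n = 3 each). The main probe set is lower in every congenic rat (10903 to 11490 against 12171 to 14112), whereas the other one is higher on average (5869 against 5058) with overlapping strains.

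By their main probe sets, the 3 proximal genes together had a median log2 difference of 0.11, with 2 positive and 1 negative. The negative one is Slc4a4, whose other probe set was positive. Of 10 markers of the proximal tubule, 7 had a positive and 3 a negative difference, with a median of 0.11. The transcription factor gene Hnf4a (0.23) was the 1 marker at unadjusted p below 0.05, and its other probe sets had 0.05 and 0.09 with overlapping strains. The summed signal of these 10 markers was 128215 to 135307 in congenic and 117248 to 128331 in S kidneys, which overlapped slightly. Their part in the result for Car4 was not tested.

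The promoters of Car4 and Slc4a4, the proximal genes with the lowest unadjusted p values, and of Rhcg, the intercalated cell gene without overlap, are shown to set out the sequence before each start site. Each is the 250 bases upstream of the start in RefSeq, build GRCr8, read 5' to 3' on the gene's strand, with capitals for the motifs found. A single start was taken for each gene, and whether the kidney transcript begins there was not analysed here. The motifs searched on both strands were the TATA box TATAAA, the box named CCAAT, the GC box GGGCGG, the nuclear receptor half-site AGGTCA and the forkhead motif TGTTTAC. The Car4 promoter is at chr10:70325108-70325357 (plus strand), that of Slc4a4 at chr14:19468283-19468532 (minus strand) and that of Rhcg at chr1:142965163-142965412 (minus strand).
Car4: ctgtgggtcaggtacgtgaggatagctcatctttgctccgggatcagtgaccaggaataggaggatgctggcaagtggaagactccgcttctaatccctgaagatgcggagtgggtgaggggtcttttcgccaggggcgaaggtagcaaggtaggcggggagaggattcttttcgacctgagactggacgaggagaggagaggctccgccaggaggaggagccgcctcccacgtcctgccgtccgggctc
Slc4a4: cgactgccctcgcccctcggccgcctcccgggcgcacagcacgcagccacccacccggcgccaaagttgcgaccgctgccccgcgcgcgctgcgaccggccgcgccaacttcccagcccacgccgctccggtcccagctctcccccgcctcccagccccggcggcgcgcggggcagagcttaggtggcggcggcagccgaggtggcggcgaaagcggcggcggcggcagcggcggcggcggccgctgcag
Rhcg: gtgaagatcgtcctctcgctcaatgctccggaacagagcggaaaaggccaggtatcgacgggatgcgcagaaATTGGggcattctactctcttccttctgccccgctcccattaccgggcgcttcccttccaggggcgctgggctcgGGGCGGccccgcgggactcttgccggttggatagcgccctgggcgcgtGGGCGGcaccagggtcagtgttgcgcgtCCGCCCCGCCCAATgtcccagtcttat

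Neither Car4 nor Slc4a4 held any of the 5 motifs in this window. Rhcg held 4 GC boxes and 2 CCAAT motifs, and nearest the start site its last pair of GC boxes overlap each other and the last GC box overlaps the second CCAAT. Of the 7 member genes with a promoter entry, 4 had a GC box and 1 had CCAAT, against 30.5% and 34% of all 33469 rat promoters. The TATA box, the nuclear receptor half-site and the forkhead motif occurred in 0 of the 7, against 12.9%, 14.1% and 3.21% of all promoters. The G and C content was 60.4% for Car4, 80.8% for Slc4a4 and 65.2% for Rhcg, against a median of 51.2% over all promoters. These matches describe letters only. The congenic segment lies on chromosome 1, and Rhcg is the only one of the 9 genes on that chromosome, with 1236 protein-coding genes between it and Adamts16 in the order of GRCr8. Whether Rhcg lies within the Lewis segment was not analysed here.

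Among the intercalated cell genes, Rhcg was the one whose strains did not overlap. It encodes an ammonia channel of the collecting duct found on the luminal and basolateral membranes of intercalated and principal cells. Its signal was 1970, 1763 and 1831 in the congenic rats, against 1679, 1499 and 1705 in the S rats. Each congenic rat was above each S rat, with a log2 difference of 0.19 (SE 0.09, 95% interval -0.01 to 0.39, unadjusted p of 0.0607, limma adjusted p = 0.503).

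Slc26a4 encodes pendrin, the chloride-bicarbonate exchanger of type B and other non-A intercalated cells, which also takes part in salt retention. Its probe set read 1059, 1036 and 893 in the congenic rats, against 928, 875 and 909 in the S rats. Of the congenic rats, 2 were above all S rats and 1 was among them, and the log2 difference was 0.14 (SE 0.11, 95% interval -0.10 to 0.37, limma adjusted p = 0.685). It was 0.21 without congenic replicate 3 and 0.09 without congenic replicate 1.

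Slc4a1 encodes the anion exchanger AE1, which returns bicarbonate to blood across the basolateral membrane of type A intercalated cells and is also a major protein of the red cell membrane. Its main probe set read 2113, 1658 and 1613 in the congenic rats, against 1722, 1686 and 2321 in the S rats. The highest value was that of S replicate 3 and the strains overlapped, with a log2 difference of -0.08 (SE 0.13, 95% interval -0.36 to 0.20, limma adjusted p = 0.851). Without S replicate 3 it was 0.06. The second Slc4a1 probe set overlapped as well, with 841 to 1112 in congenic and 992 to 1226 in S kidneys and a log2 difference of -0.18.

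Because red cells hold AE1, and the Car2 enzyme as well, red cell markers were set beside Slc4a1. Of 9 such genes, 5 had a probe set, with a summed signal of 9946 to 16990 in congenic and 15575 to 22082 in S kidneys. That sum is mostly Hbb, and the mean log2 deviation, which weights the 5 genes equally, was -0.77 to 0.68 in congenic and -0.05 to 0.21 in S kidneys. Both tested ones were lower in congenic kidneys at unadjusted p below 0.05, Hbb, a haemoglobin chain, at -0.42 and Alas2, the first enzyme of haem synthesis in red cells, at -0.55, with overlapping strains in each. Of the 3 below the filter, Epb42 had 0.23, Ahsp 0.19 and Rhag -0.50. None read 0, and 1 of the 5, Rhag, was at the floor on at least 3 of the 6 arrays. The part of red cells in the Slc4a1 and Car2 signals was not tested.

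The 3 measured intercalated cell genes had a median log2 difference of 0.14, with 2 positive and 1 negative, and the median was 0.09 without congenic replicate 1. Of 7 measured markers of intercalated cells, only 4 passed the filter on low signals, with a median of 0.14 and 3 positive. The summed signal of the 7 was 12222 to 12710 in congenic and 11570 to 11881 in S kidneys, so the sums did not overlap. The largest part of each sum is Atp6v0a4, at 6146 to 6686 in congenic and 5534 to 5978 in S kidneys. The next brightest, Atp6v1g3, overlapped, with 3437 to 4719 in congenic and 3985 to 4195 in S kidneys. The mean log2 deviation of the 7, which gives dim genes equal weight, ran the other way. It was -0.42 to -0.02 in congenic and 0.13 to 0.20 in S kidneys.

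Car2 and Car12 belong to neither class alone. Car2, the carbonic anhydrase of the cytosol in proximal and intercalated cells and in red cells, had the narrowest interval of all members. Its main probe set read 7969, 8053 and 8248 in the congenic rats, against 8113, 8208 and 8029 in the S rats. The values were interleaved, with a log2 difference of -0.00487 (SE 0.07, 95% interval -0.16 to 0.15) and an adjusted p = 0.987 in limma. The second probe set gave 0.01 (95% interval -0.15 to 0.18), so a difference of more than 0.18 on the log2 scale lies outside the interval of either probe set.

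Car12, a carbonic anhydrase that spans the membrane with its active site outside the cell, had overlapping strains. Its signal was 377, 227 and 388 in the congenic rats, against 515, 353 and 427 in the S rats. Congenic replicate 2 was the lowest and S replicate 1 the highest, with a log2 difference of -0.41 (SE 0.21, 95% interval -0.86 to 0.05, unadjusted p of 0.0763, limma adjusted p = 0.527). It was -0.16 without congenic replicate 2 and -0.27 without S replicate 1, so the size of this difference rested on those rats.

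**Figure D3:**
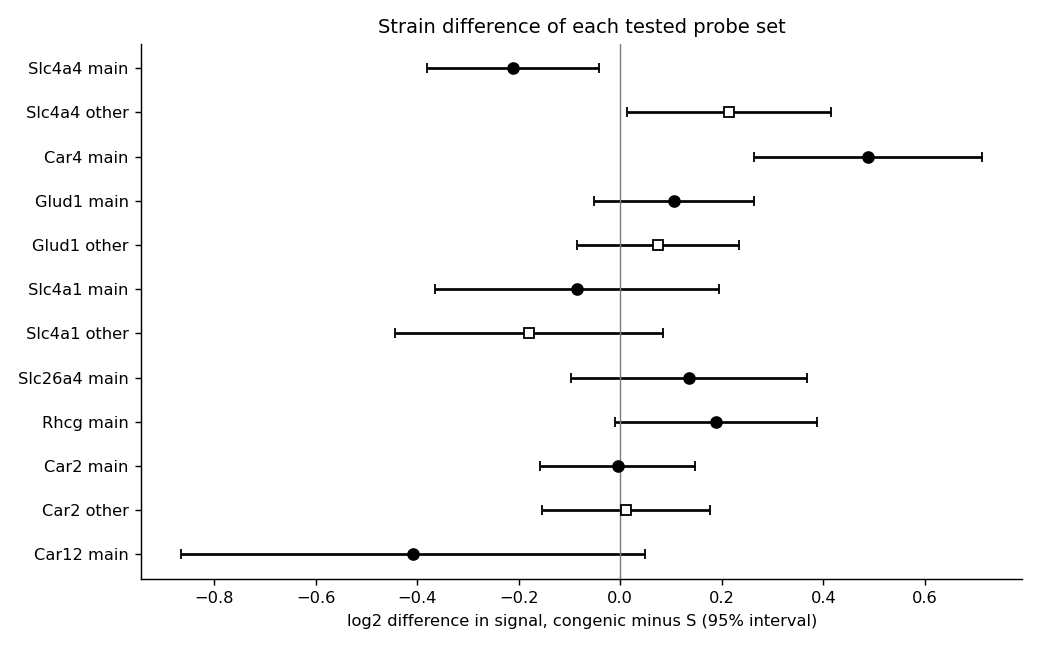
Log2 difference in signal, congenic minus S, with its 95% interval from limma, for the 12 tested probe sets of the members (filled circles for main, open squares for other probe sets). The intervals of Car4 and of both Slc4a4 probe sets leave out 0, the Slc4a4 pair on opposite sides, and those of the other 9 include it.

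The wider pathway was described with 5 lists of genes. For ammonia generation and glutamine handling, 14 of 18 listed genes were tested, Glud1 among them, 11 had a positive and 3 a negative difference, and the median was 0.16 against -0.01 over all probe sets tested. Of these, 6 were higher in congenic kidneys at unadjusted p below 0.05 and 0 were lower, against 4.72% higher and 5.61% lower over all probe sets. Most genes of this list are bright, and among the 4822 tested probe sets with a mean signal of 1000 or more, 9.23% were higher at that p. No median was taken over those bright probe sets alone, so the list median has no baseline of like signal. The same holds for the medians of the members, markers and other lists. None of the list genes passed the adjusted threshold.

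Slc38a3 stood out most in this list. It encodes SNAT3, the glutamine transporter that brings glutamine into proximal tubule cells from blood and is known to be induced in acidosis. Its signal was 1466, 1273 and 1225 in the congenic rats, against 901, 937 and 669 in the S rats. All congenic rats were well above all S rats, with a log2 difference of 0.67 (SE 0.13, limma adjusted p = 0.117), a larger difference than that of any member.

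Slc25a10, the mitochondrial dicarboxylate carrier, read 8613, 6894 and 9324 in the congenic rats, against 6436, 6267 and 6265 in the S rats. Its log2 difference was 0.38 (SE 0.10), and its dim second probe set had 0.32. Glul, glutamine synthetase, which recaptures ammonia as glutamine, read 18578, 16955 and 18572 in the congenic rats, against 15116, 14101 and 15916 in the S rats. Its log2 difference was 0.26 (SE 0.08), and its other probe sets had 0.26 and 0.08. Pck1, the gluconeogenic enzyme that uses the carbon left when ammonia is released, read 22012, 17926 and 19474 in the congenic rats, against 17083, 16232 and 17875 in the S rats. Its log2 difference was 0.21 (SE 0.09), with the lowest congenic rat just above the highest S rat. The remaining pair, named after their values were seen, were Fbp1, a gluconeogenic enzyme, at 0.22 and Slc25a11, the mitochondrial oxoglutarate carrier, at 0.18. Fbp1 read 22538, 25796 and 27654 in the congenic rats, against 23212, 19342 and 22584 in the S rats, so its strains overlapped. For Slc25a11 all congenic rats were above all S rats. In limma these 5 genes had adjusted p values of 0.229 (Slc25a10), 0.279 (Glul), 0.421 (Pck1), 0.451 (Fbp1) and 0.457 (Slc25a11). The list holds genes for making ammonia and, in Glul, for removing it, so its count gives no direction for ammonia output. The count of 6 was 3 without S replicate 2, 3 without congenic replicate 3, 3 with cyclic loess normalisation and 9 with each array centred on its median.

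For proximal bicarbonate and proton transport, 12 of 16 listed genes were tested, with 9 positive, 3 negative and a median of 0.12. At unadjusted p below 0.05 there was 1 higher, Ezr (0.19), the membrane-cytoskeleton linker ezrin, and 1 lower, Slc4a2 (-0.28), the anion exchanger AE2. Ezr read 13244, 13087 and 13953 in congenic rats, against 12882, 11011 and 11469 in S rats. Slc4a2 read 1112, 1095 and 1064 in congenic rats, against 1310, 1185 and 1494 in S rats, so the strains were apart in both genes. With each array centred on its median, the count of higher genes was 4. It was 2 with array weights, with the mean of all probe sets of a gene, and without S replicate 1 or congenic replicate 1. After quantile normalisation or cyclic loess it was 0. It was also 0 with a block for the number opening each title, without the intensity trend, and without congenic replicate 3, S replicate 2 or S replicate 3.

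For the other intercalated cell genes, 9 of 21 listed genes were tested, with 6 positive, 3 negative and a median of 0.11. Atp6v0a4, the kidney form of a membrane subunit of the proton pump, was the 1 gene higher at unadjusted p below 0.05. It read 6686, 6432 and 6146 in congenic rats, against 5665, 5534 and 5978 in S rats, a log2 difference of 0.17 (SE 0.08). The count of 1 became 0 without congenic replicate 1, S replicate 1 or S replicate 2, with the title number as a block, after quantile normalisation or cyclic loess, and without the intensity trend. None was lower. Below the filter on low signals lay Insrr, Aqp6, Hepacam2 and Kit, whose values come from limma on the unfiltered set of 31042 probe sets. Insrr is a receptor of the insulin receptor family that senses alkaline pH, and Aqp6 a water and anion channel of intercalated cells. These are given in full because they were at unadjusted p below 0.05 there, as were 7.92% of all probe sets without the filter. Hepacam2 (-0.13) and Kit (-0.66) were not, and their strains overlapped. Insrr read 39.0, 55.7 and 57.8 in congenic rats, against 104, 158 and 145 in S rats, a log2 difference of -1.41 (SE 0.32, limma adjusted p = 0.467). Aqp6 read 49.95, 69.3 and 75.0 in congenic rats, against 115, 121 and 210 in S rats, a log2 difference of -1.17 (SE 0.35, limma adjusted p = 0.579). In both genes all congenic rats were below all S rats, at signals under the median of the arrays except that of 1 S rat for Aqp6. The other Insrr probe sets, dimmer still, had differences of 0.55 and -0.58. With no filter on low signals, the median of this list was -0.00905.

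For ammonium transport of the loop of Henle and collecting duct, 8 of 14 listed genes were tested, with 6 positive, 2 negative and a median of 0.10, which was -0.01 without S replicate 2. Kcnj16, a basolateral potassium channel subunit, was higher at unadjusted p below 0.05. It read 8458, 8696 and 8694 in congenic rats, against 7459, 7374 and 7743 in S rats, a log2 difference of 0.20 (SE 0.07), and its second probe set had 0.07. This count of 1 became 0 after cyclic loess, without the intensity trend and with the mean of all probe sets of a gene. Slc12a1, the cotransporter that takes up ammonium in place of potassium in the thick ascending limb, was lower at -0.26 (SE 0.10), with overlapping strains. For acid sensing and regulation, 5 of 14 listed genes were tested, with 1 positive, 4 negative and a median of -0.05. None of these 5 was at unadjusted p below 0.05, and with arrays centred on the median the list median was 0.02. The smallest p was that of Ptk2b, at -0.26 (SE 0.17, unadjusted p of 0.152 in limma), with overlapping strains. Insrr, given above with the intercalated cell genes, is also on this list but lay below the filter on low signals.

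**Figure D4:**
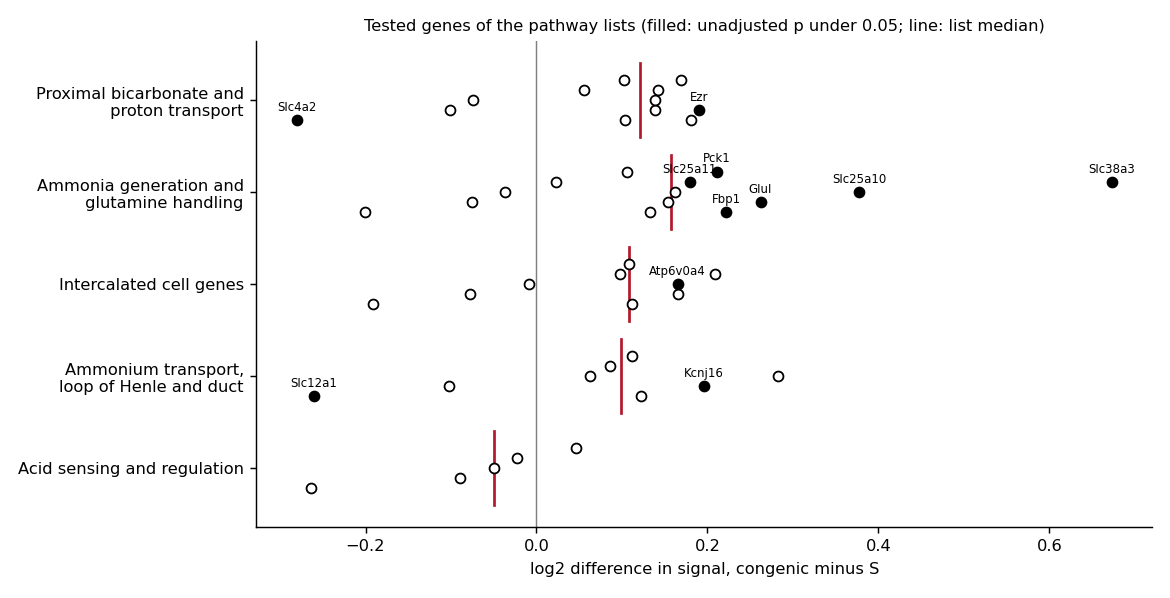
Log2 difference in signal, congenic minus S, of each tested gene (points) in the 5 pathway lists, with the list median as a red line. Filled points have unadjusted p below 0.05. The 6 filled points of the ammonia list lie above 0, from 0.18 for Slc25a11 to 0.67 for Slc38a3, and no gene shown passed the adjusted threshold.

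To find genes with a like pattern, the mean profile of each class over the 6 arrays was scaled to unit spread and compared with 9326 other named genes by root-mean-square difference, where 0 is identity. Nearest to the 3 proximal genes were Mepce (0.13), Resp18 (0.15) and Wfdc10a (0.16), and nearest to the 3 intercalated cell genes were Esrp1 (0.07), Neu2 (0.18) and Pi4k2b (0.22). These distances, over 6 arrays shared by all genes, are given as a description. The proximal profile was above its mean in all 3 congenic rats and below it in all 3 S rats. It averages unlike genes, with log2 differences of 0.49 for Car4, 0.11 for Glud1 and -0.21 for the main Slc4a4 probe set. The intercalated profile was above its mean in congenic replicate 1 and S replicate 3, and barely so in congenic replicate 2 (0.0019).

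**Figure D5:**
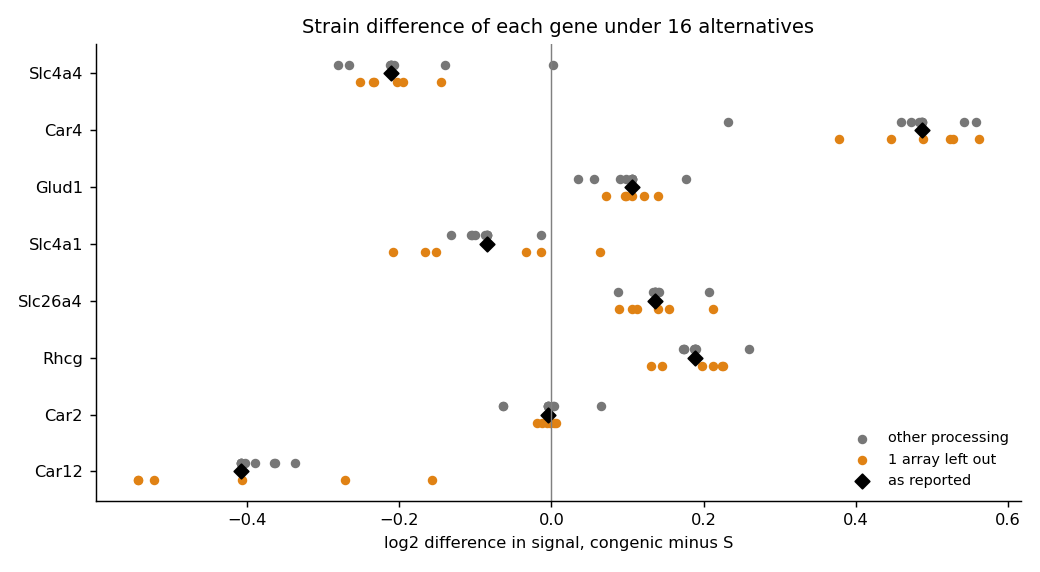
Log2 difference in signal, congenic minus S, of each gene as reported (black diamonds), under 10 other processing choices (grey) and with 1 array left out (orange, 6 fits). Car4, Glud1, Slc26a4 and Rhcg stay above 0 and Car12 below 0 in all 16 alternatives, while Car2, Slc4a1 and Slc4a4 cross 0 in at least 1.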

How the data were processed

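The authors deposited probe set intensities on a linear scale, made with GCOS 1.4 per the submitters' processing notes; for its settings and detection calls the sources used here give nothing. Each array had the same trimmed mean of 500.2, so scaling preceded deposit. No further normalisation was applied. Signals below 12.3, the 10th percentile of all values with control probe sets included, were set to that value before taking log2. The 57 control probe sets were then dropped. The 15521 of 31042 probe sets above the median mean log2 signal were fitted with limma 3.58.1 in R 4.3.3 (eBayes with intensity trend), congenic minus S, 3 rats each. The number of arrays limits precision. Symbols came from the platform annotation, updated through Entrez identifiers to assembly GRCr8.

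The members and lists were chosen with earlier results of these data known, so no list was tested as a set. The ratio of the Slc4a4 probe sets was outside the planned comparisons. Text names all members, the 3 nearest profiles per class and list genes at unadjusted p below 0.05. These were at most 4 a list, with Fbp1 and Slc25a11 added after their values were seen. Where no tested gene of a list was below 0.05, the tested gene of smallest p is named. Alternatives covered the floor, pseudocount, filter, normalisation, weights per array, the variance model, the number opening each title as a block, probe set choice and each array left out.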

Additional observations from a re-analysis of the deposited data

How the results depend on the processing

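No member passed adjusted p 0.05 under any of the 16 alternatives, and Car4, Glud1, Slc26a4, Rhcg and Car12 kept their sign in all of them. Car4 had adjusted p between 0.0874 and 0.808 over the alternatives, and its log2 difference ran from 0.23 to 0.56. Signs turned for Slc4a4 with the mean of all probe sets (0.00186), for Slc4a1 with 1 array left out (range -0.21 to 0.0637) and for Car2 with centring (0.0658), a block for the title number (0.00229), the mean of all probe sets (0.00336) and 1 array left out (range -0.0189 to 0.00595). The causes were not tested. The 2 members at unadjusted p below 0.05 became 1 without the intensity trend and 0 with the mean of all probe sets, and 3 with centring, where Slc4a4 was lost and Rhcg and Glud1 gained, without the filter (Rhcg gained) or without congenic replicate 1 (Car12 gained). Without S replicate 2 or congenic replicate 3 the count of 2 held Car12 in place of Slc4a4. The proximal median of 0.11 was 0.0566 after quantile normalisation, 0.18 with centring and 0.0355 after cyclic loess, and the intercalated median of 0.14 was 0.0880 with the title block, 0.21 with centring and 0.0895 to 0.20 with 1 array left out. The ammonia list's count of 6 was 3 after cyclic loess, without the trend and with the title block, 9 with centring, 7 with array weights, and 3 to 6 with 1 array left out. Its median was 0.23 with centring. Over all probe sets, 9 were called at adjusted p 0.05 with centring and 0 to 41 with 1 array left out (41 without S replicate 1). No paired analysis was possible because the labels give the strains no common replicate number. Without detection calls, dim signals such as those of Insrr, Aqp6 and the second Car4 probe set could not be separated from background.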
